A study of Mus musculus with 8 samples.

Results

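The miRNAs described here are the 2 strands of miR-126 and the pair miR-221 and miR-222, which are best known from blood vessels. They were chosen by name: every non-control probe of the array whose target is mmu-miR-126-3p, mmu-miR-126-5p, mmu-miR-221 or mmu-miR-222 was taken (mmu for mouse, left out from here on). This gave 4 miRNAs with 8 probes, of 566 mouse miRNAs with 1672 probes, and 3 of the 4 were bright enough to be tested, of 189 in all. The tissue was brown fat, the depot that produces heat, from male C57Bl6N mice that were 8 weeks old. One group of 3 mice (mice 1 to 3) was held at 8 °C for 24 h, and the other group of 3 (mice 4 to 6) stayed at room temperature, 21 °C. No mouse carried an engineered allele according to the labels. Total RNA of each mouse was labelled with Cy3 and hybridised to 1-colour Agilent miRNA arrays, and mice 1 and 4 had 2 arrays each, which were averaged. RNA came from whole tissue, so fewer cells of a type and less RNA per cell cannot be told apart.

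A miRNA is cut from a hairpin precursor, and either strand, named 5p or 3p for its side of the hairpin, can be loaded into the silencing complex. Bases 2 to 8 of the loaded strand, the seed, select the messenger RNAs that it represses. miR-126 is the characteristic miRNA of endothelial cells, where it sustains signalling by vascular endothelial growth factor through repression of Spred1 and Pik3r2. Its hairpin lies inside Egfl7, a gene for a protein that endothelial cells secrete. miR-221 and miR-222 come from neighbouring hairpins and repress Kit, the receptor of stem cell factor, in human endothelial cells, and the cell cycle inhibitor Cdkn1b. Brown fat is densely supplied with vessels, which bring it fuel and oxygen and carry its heat away.

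The mature sequences show which of these miRNAs share a seed. They are from RefSeq (GRCm38.p6), which matched 3 of the 4 miRNAs, and are written 5′ to 3′ with the seed in capitals. The entry for miR-126-3p is named miR-126a-3p (chr2:26591402-26591423, plus strand), that for miR-221 is miR-221-3p (chrX:19146307-19146329, minus strand), and that for miR-222 is miR-222-3p (chrX:19146901-19146923, minus strand).
miR-126-3p: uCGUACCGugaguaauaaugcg
miR-221: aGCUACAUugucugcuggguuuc
miR-222: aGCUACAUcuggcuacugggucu
The seed of miR-126-3p was found in 1 of 1738 mature mouse entries, its own. miR-221 and miR-222 have 1 seed between them, which 3 of the 1738 entries carry, and their first 8 bases are identical. Past the seed they diverge: over the full length, with those 8 bases included, 11 of 23 positions are the same letter when both are aligned at the 5′ end. Their hairpins lie 504 bases apart on the same strand. The hairpin of miR-126 shows how both arms come from 1 transcript, with the 3p strand in capitals (chr2:26591357-26591429, plus strand, 73 bases, 3p arm at 46 to 67).
Mir126a: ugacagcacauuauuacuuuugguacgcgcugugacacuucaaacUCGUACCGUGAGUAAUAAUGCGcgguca

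None of the 3 testable miRNAs differed between cold and room temperature past the threshold. Levels are given as log2 of the background-subtracted signal relative to the 75th percentile of the same array, taken over the probes detected on all 8 arrays, so that 0 is that percentile. The fit by limma over all 189 miRNAs, at a Benjamini-Hochberg adjusted p under 0.05, called 29 miRNAs, or 15.3%, and 0 of these 3. At an unadjusted p under 0.05 it named 62 of the 189 (32.8%), again with 0 of these 3. The groups of mice did not overlap for 73 of the 189 miRNAs (38.6%) and overlapped for all 3 of these.

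miR-126-3p, the strand that represses Spred1, had log2 levels of 3.16, 3.57 and 3.58 in cold mice 1, 2 and 3, against 3.47, 3.60 and 3.67 in room temperature mice 4, 5 and 6. Mouse 1 was the lowest of the 6, and the other 2 cold mice lay between the room temperature mice. The cold mean was 3.44 ± 0.240 and the room temperature mean 3.58 ± 0.102 (SD, n = 3 mice each). Cold minus room temperature was −0.15 (SE 0.156; 95% interval −0.51 to 0.22; limma adjusted p = 0.531), a fold of 0.904 with an interval of 0.702 to 1.16. A change within that interval could not be told from none with 3 mice a group.

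miR-126-5p, the other strand of the same hairpin, which represses Dlk1 in endothelial cells, had log2 levels of −4.24, −3.30 and −3.47 in the cold mice, against −3.89, −3.16 and −3.10 in the room temperature mice. The lowest mouse of each group, mouse 1 and mouse 4, stood apart from its 2 companions. Cold minus room temperature was −0.29 (SE 0.299; 95% interval −0.98 to 0.41; limma adjusted p = 0.525), and without mouse 1 it was −0.0027 (limma adjusted p = 0.992). The 2 arrays of mouse 1 read −3.69 and −4.79 for this strand, a gap wider than the difference between the groups, whereas those of mouse 4 read −3.94 and −3.84.

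miR-221 had log2 levels of −4.45, −4.23 and −4.75 in the cold mice, against −4.71, −4.38 and −4.77 in the room temperature mice. One cold mouse and 2 room temperature mice lay close together at the low end, and only mouse 2 of the cold group lay above every room temperature mouse. Cold minus room temperature was 0.14 (SE 0.179; 95% interval −0.27 to 0.56; limma adjusted p = 0.610), with means of −4.48 ± 0.260 in cold mice and −4.62 ± 0.212 at room temperature (SD, n = 3 each). After the correction for spot position described below the difference was −0.31 (limma adjusted p = 0.287), so its direction depends on the processing. Without scaling it was −0.30, where the median over all 189 miRNAs was −0.46, so that relative to that median it was 0.16.

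miR-222 stayed at background: neither of its probes was well above it on any of the 8 arrays, so no fold is given. Its mean signal over both probes was 0.871, 0.832 and 1.35 units in the cold mice, against 2.69, 0.755 and 2.84 units in the room temperature mice. Negative control spots averaged 0.275 ± 0.378 units in cold mice and 0.159 ± 0.207 units in room temperature mice, and probes for viral miRNAs averaged 1.37 ± 0.642 and 0.758 ± 0.422 units in those groups (SD, n = 3 each). In mice 1, 2, 3 and 5 the signal of miR-222 lay within the range of those viral averages over the 6 mice (0.271 to 2.11 units), and in mice 4 and 6 it lay above. Cold minus room temperature was −1.08 units (exact permutation test, 2-sided, p = 0.4; the smallest p that 3 against 3 mice allow is 0.1).

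One of the 2 miR-222 probes, A_54_P2644, read 1.43, 1.62 and 1.90 units in the cold mice, against 4.48, 2.73 and 5.25 units in the room temperature mice. The groups did not overlap in this probe (exact permutation test, 2-sided, p = 0.1), but no array placed it well above background. The other, A_54_P2643, read 0.314, 0.045 and 0.801 units in cold mice, against 0.902, −1.22 and 0.423 units in room temperature mice, and its groups overlapped. For this pair of miRNAs with 1 seed, the difference of miR-221 minus miR-222 averaged 34.8 ± 8.07 units in cold mice and 41.6 ± 6.67 units in room temperature mice (SD, n = 3; exact permutation test, 2-sided, p = 0.4), before scaling. With each array scaled to the 75th percentile its change was 4.35 units in place of −6.82 (exact permutation test, 2-sided, p = 0.6), so no direction can be given. That difference is set by miR-221, since miR-222 gave at most 2.84 units in any mouse.

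**Figure D1:**
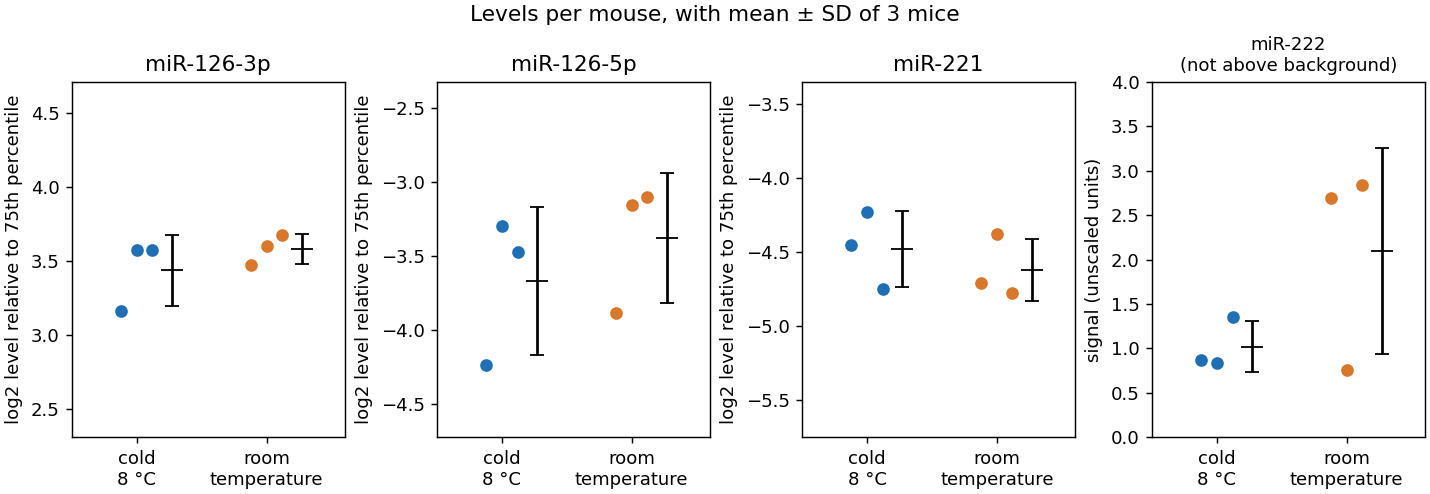
Levels in each mouse, with cold (8 °C) left of room temperature in every panel; points are mice, and the black bar is the mean ± SD of 3 mice. The first 3 panels are on a log2 scale of equal span and miR-222 is in unscaled signal units; the groups overlap in all 4.

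miR-126-3p was among the brightest miRNAs of the tissue. It ranked second of 189 by mean level, first in mouse 5 and second in each of the other 5 mice. miR-451, an erythroid miRNA, stood next above it with a mean level of 4.07 over the 6 mice against 3.51, and was above it in 5 of 6. let-7f stood next below at 2.62 and was below it in 6 of 6 mice. Signals of different probes also depend on how well each probe binds, so this order is one of signals and not of molecules. Another measure is the total signal that the scanner software gives for each of the 566 mouse miRNAs. Of its sum, miR-126-3p made up 7.57%, 7.98% and 8.67% in the cold mice, against 7.30%, 7.52% and 8.32% in the room temperature mice. The mean share was 8.07% in cold mice and 7.71% at room temperature, whereas the mean scaled level was lower in cold mice. These shares overlapped between the groups (exact permutation test, 2-sided, p = 0.5).

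miR-126-5p ranked 91 of 189 by mean level, between 85 and 112 in single mice. Its neighbours in that order, miR-342-3p above (mean −3.47) and miR-136 below (mean −3.54), did not differ from it beyond its own spread of 0.449 between mice (SD, n = 6; mean −3.53). miR-221 ranked 127, between 114 and 136 in single mice, with a mean level of −4.55. It lay next to miR-335-5p above (−4.53) and miR-7a below (−4.55), again within its spread of 0.226.

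**Figure D2:**
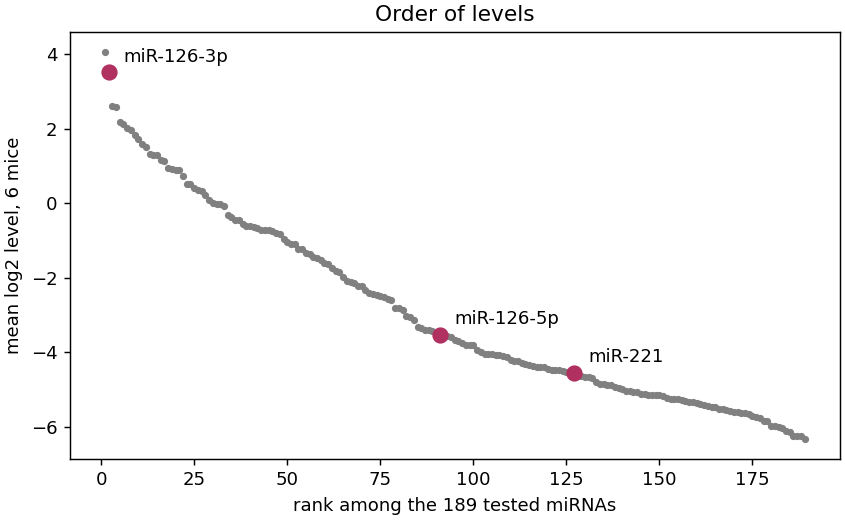
Mean log2 level over 6 mice (vertical axis) of the 189 tested miRNAs in order of level (horizontal axis), with miR-126-3p, miR-126-5p and miR-221 marked. miR-126-3p is second, while miR-126-5p and miR-221 lie at ranks 91 and 127.

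The arms of miR-126 kept a wide distance in signal in both groups. The log2 ratio of 3p over 5p was 7.40, 6.87 and 7.05 in the cold mice, against 7.36, 6.76 and 6.78 in the room temperature mice. One mouse of each group was high, mouse 1 and mouse 4, the same mice in which miR-126-5p was lowest. The ratio averaged 7.11 ± 0.267 in cold mice and 6.96 ± 0.343 at room temperature (SD, n = 3 each), a difference of 0.14 (exact permutation test, 2-sided, p = 0.5). On the linear scale the 3p signal was 126 ± 42.0 times that of 5p in cold mice and 94.8 ± 24.7 times at room temperature. The size of the ratio depends on the probes, of which a 3p and a 5p probe can be paired in 4 ways. Its log2 level was lowest for A_54_P2285 over A_54_P1035 (5.12 in cold mice, 5.28 at room temperature). It was highest for A_54_P2286 over A_54_P4367 (9.09 and 8.65). The change of the log2 ratio ran from −0.42 (A_54_P2285 over A_54_P4367) to 0.70 (A_54_P2286 over A_54_P1035). After the spot position correction these last 2 pairings gave −0.06 and 0.46. Without mouse 1 the change of the ratio was −0.0050.

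The 2 probes of miR-126-3p gave opposite differences, each with no overlap between the groups. A_54_P2285 had log2 levels of 2.03, 2.87 and 2.85 in the cold mice, against 3.12, 3.08 and 3.28 in the room temperature mice, a difference of −0.58. A_54_P2286 had 4.29, 4.27 and 4.31 in the cold, against 3.83, 4.12 and 4.07 at room temperature, a difference of 0.28. Both differences had the smallest p that the design allows (exact permutation test, 2-sided, p = 0.1), and 147 of the 329 probes kept (44.7%) likewise did not overlap between the groups. The value of −0.15 for miR-126-3p is the mean of these opposite readings of 1 molecule. The probes also differed in brightness, by 1.71 ± 0.484 in cold mice and 0.85 ± 0.175 at room temperature (log2, A_54_P2286 minus A_54_P2285; SD, n = 3).

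The probes of the other miRNAs were compared in the same way. Both probes of miR-126-5p overlapped between the groups, with differences of −0.41 for A_54_P1035 and −0.16 for A_54_P4367. A_54_P4367 was above background on 3 of 4 cold arrays and on 4 of 4 room temperature arrays, and so entered through the room temperature group alone. With A_54_P1035 as its single probe, miR-126-5p differed by −0.41 (limma adjusted p = 0.501). Of the miR-221 probes, A_54_P3830 was above background on all 8 arrays and carries the value given above. A_54_P2640 was above background in over 0.5 of its spots on 1 cold array and no room temperature array and was not kept. On the first arrays of cold mice 1, 2 and 3, 4, 5 and 6 of 10 spots were above background. On the second array of mouse 1 and on every room temperature array 0 were. It read 6.94, 17.5 and 16.2 units in cold mice, against 2.99, 2.09 and 5.08 units in room temperature mice, without overlap (exact permutation test, 2-sided, p = 0.1). After the correction for spot position described below, its groups overlapped, but every room temperature mouse was at the floor before that correction.

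Where on the array a spot lay went along with how bright it was, and this pattern differed between the groups. Each probe is printed in several spots over the 192 rows of an array. For probes detected on all 8 arrays, spots in rows 1 to 48 deviated from their probe's median by −1.09 ± 0.039 in cold mice and 0.08 ± 0.032 at room temperature (log2, SD, n = 3 mice). In rows 145 to 192 the deviation was 0.20 ± 0.056 in cold mice and −0.81 ± 0.132 at room temperature. Every cold array was dim in the first 48 rows and every room temperature array in the last 48, and in the rows between the group means lay at most 0.21 from the probe median. Positive control probes showed the same: −0.76 ± 0.103 in cold mice and 0.05 ± 0.029 at room temperature in the first 48 rows, and 0.11 ± 0.059 and −1.19 ± 0.272 in those groups in the last 48. All cold arrays occupied one side of the slide and all room temperature arrays the other, so position on the slide and temperature cannot be told apart.

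**Figure D3:**
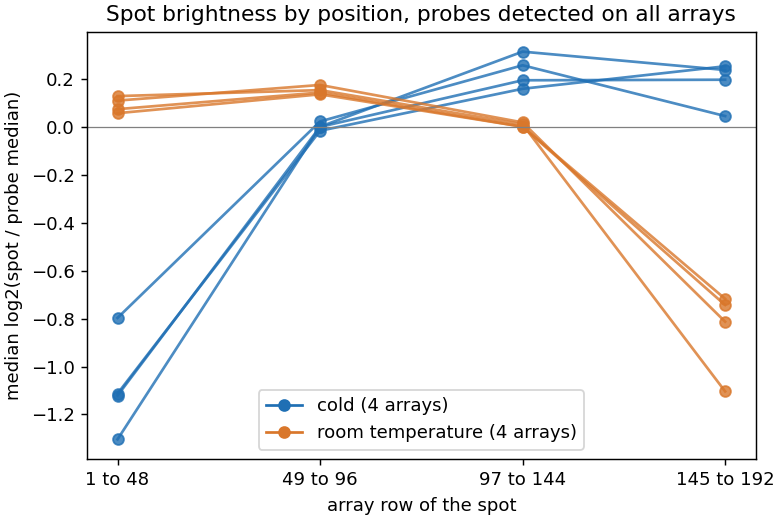
Median log2 deviation of a spot from its probe's median on that array (vertical axis) by array row (horizontal axis, 4 bands of 48 rows), for probes detected on all arrays; each line is 1 array. The 4 cold arrays are dim in rows 1 to 48 and the 4 room temperature arrays in rows 145 to 192.

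The spots of the miR-126 and miR-221 probes followed this pattern. Of the 10 spots of A_54_P2285, 7 lay in the first 48 rows, 3 in the last 48 and none between, whereas A_54_P2286 had 0 in the first 48, 7 in the middle 96 and 3 in the last 48. Spots of A_54_P2285 in the first rows averaged 1997 ± 754 units in cold mice and 11370 ± 3435 units in room temperature mice (SD, n = 3; exact permutation test, 2-sided, p = 0.1). Those in the last rows averaged 9771 ± 4866 units in cold mice and 3680 ± 508 units in room temperature mice (exact permutation test, 2-sided, p = 0.2). The means of 1 probe thus lay in both directions within the same arrays, although in the last rows the groups overlapped through mouse 1.

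miR-221 showed the same reversal in A_54_P3830, whose spots were spread as 3, 4 and 3 over the first 48, the middle 96 and the last 48 rows. Spots in the first rows averaged 9.43 ± 4.31 units in cold mice and 35.3 ± 5.22 units in room temperature mice (SD, n = 3). Spots in the last rows averaged 53.8 ± 11.1 units in cold mice and 25.4 ± 5.24 units in room temperature mice. Neither part overlapped between the groups (exact permutation test, 2-sided, p = 0.1 each), and their directions were opposite. Middle spots, where the deviation was small, averaged 42.0 ± 8.64 units in cold mice and 63.6 ± 12.4 units in room temperature mice before scaling, also without overlap (exact permutation test, 2-sided, p = 0.1).

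For miR-126-5p the spots of A_54_P4367 in the first 48 rows averaged 4.52 ± 0.860 units in cold mice and 60.4 ± 6.96 units in room temperature mice, and those in the last 48 rows 45.5 ± 18.3 units in cold mice and 15.2 ± 6.18 units in room temperature mice (SD, n = 3). These are given with no test, since the probe entered through 1 group. Its middle spots overlapped between the groups, at 33.4 ± 12.2 units in cold mice and 50.5 ± 30.6 units in room temperature mice. The unkept miR-221 probe A_54_P2640 had 6 of 10 spots in the last 48 rows. In the middle rows, with 1 spot in each band of 48 rows, it read 14.0 ± 4.94 units in cold mice and 3.21 ± 2.11 units in room temperature mice (exact permutation test, 2-sided, p = 0.1). After the spot position correction its groups overlapped, at mean log2 levels of −5.72 in cold mice and −5.65 at room temperature (exact permutation test, 2-sided, p = 0.9). Every room temperature mouse was at the floor (−6.64) before the correction, so these room temperature levels are rescaled background signal. In the first 48 rows, with 2 spots, A_54_P2640 read 1.69 ± 3.51 units in cold mice and 5.05 ± 5.49 units in room temperature mice before the correction.

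**Figure D4:**
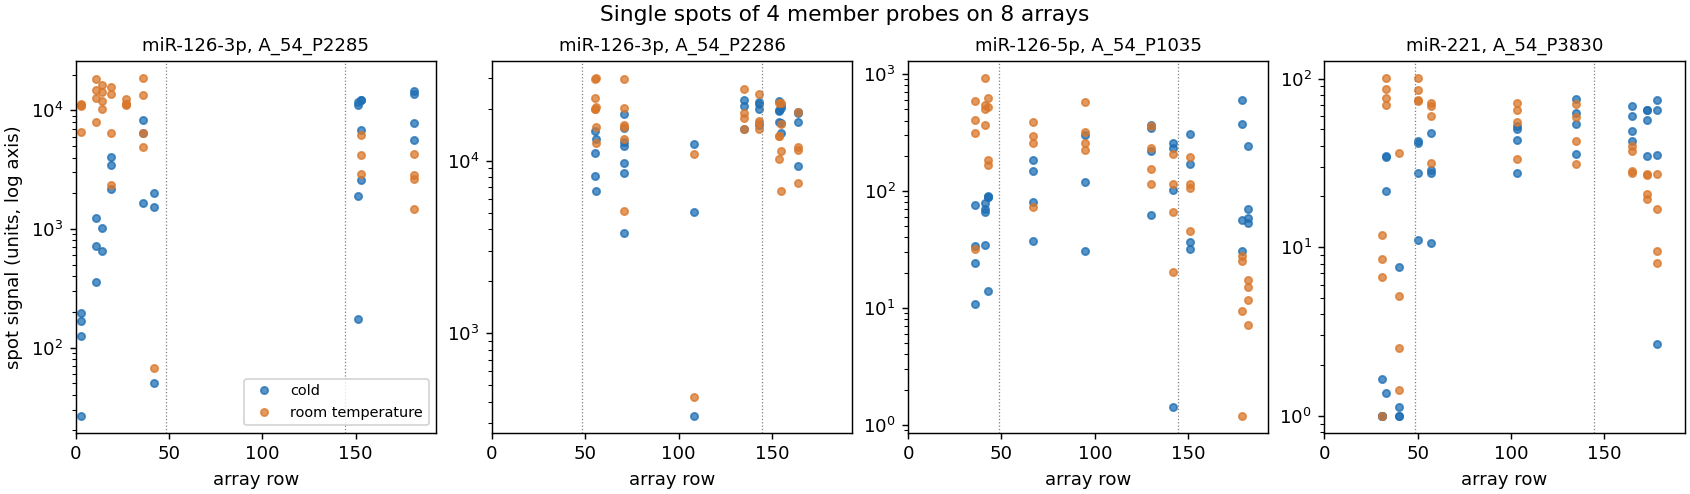
Signal of single spots (vertical axis, log scale, values under 1 drawn at 1) by array row (horizontal axis) for both miR-126-3p probes, the brighter miR-126-5p probe and the kept miR-221 probe on 8 arrays; dotted lines mark rows 48 and 144. Room temperature spots are mostly above cold spots at the left edge and mostly below them at the right edge.

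Dividing each spot by the median deviation of its part of the array, an alternative chosen after the data were seen, brought the miR-126-3p probes closer. A_54_P2285 then differed by −0.34 and A_54_P2286 by 0.04 (log2, cold minus room temperature; exact permutation tests, 2-sided, p = 0.2 and p = 0.7), and the groups overlapped in both (34.7% of the 329 kept probes did not overlap after the correction). The mean of both was −0.15 (limma adjusted p = 0.510). miR-126-5p differed by −0.35 after the correction (limma adjusted p = 0.510). With only the spots of rows 49 to 144, where A_54_P2285 has none, the differences were 0.07 for miR-126-3p and −0.07 for miR-221 (limma adjusted p of 0.692 and 0.724). Over the 329 kept probes, the share of spots in the last 48 rows minus that in the first 48 correlated with the scaled change at r = 0.447. This is a description across probes, which share arrays and were printed in fixed positions. After the correction 25 miRNAs passed the threshold, of which 18 were among the 29, and none was miR-126-3p, miR-126-5p or miR-221.

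**Figure D5:**
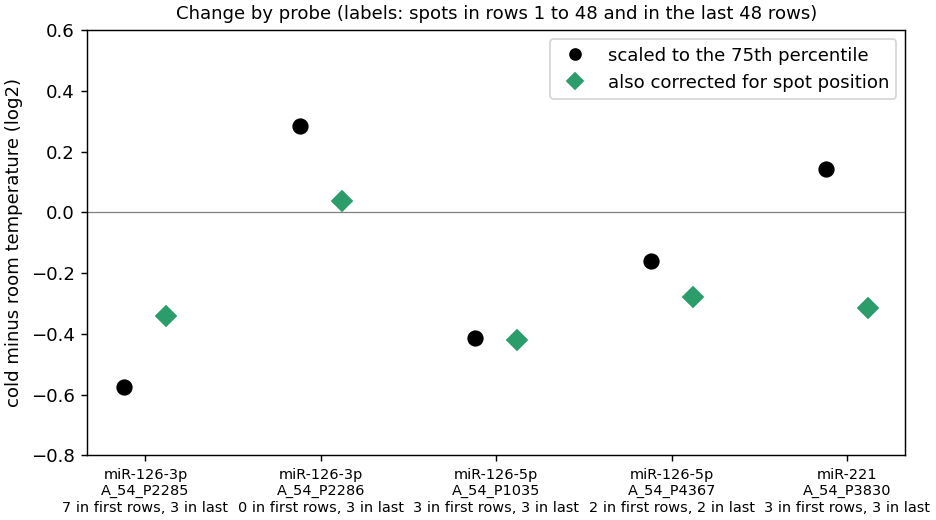
Cold minus room temperature (vertical axis, log2) for the 5 kept probes of miR-126-3p, miR-126-5p and miR-221, scaled to the 75th percentile (circles) and also corrected for spot position (diamonds). The miR-126-3p probes lie at −0.58 and 0.28 before the correction and at −0.34 and 0.04 after it, while miR-221 moves to the other side of 0.

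By likeness of pattern, the miRNAs closest to miR-126-3p over the 6 mice were miR-425, miR-690 and miR-362-5p. The root mean square difference of their log2 deviations was 0.0817, 0.0821 and 0.0832, where the median over all tested miRNAs was 0.261. miR-126-5p, from the same hairpin, lay at that median with 0.261. This measure also grows with the size of the deviations, which were larger for miR-126-5p than for miR-126-3p (SD 0.449 against 0.184, n = 6 mice). It therefore does not tell whether the 2 strands rose and fell together. Both were lowest in mouse 1 and highest in mouse 6. Closest to miR-221 were let-7e, miR-218 and miR-130a, at 0.120, 0.125 and 0.127 where the median was 0.295. None of these 6 passed the threshold between the groups.

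Other miRNAs with described roles in vessel growth were taken as 2 lists. Of 17 described as promoting it, 15 were tested, and 2 were higher in the cold (8.47% of all 189 were) and 0 lower (6.88%), with a median change of −0.05 where all miRNAs had −0.02. miR-132, which represses the Ras inhibitor Rasa1 in endothelial cells, had log2 levels of −5.19, −4.88 and −4.98 in the cold mice, against −6.16, −5.99 and −6.19 in the room temperature mice. Its change was 1.10 (SE 0.138; limma adjusted p = 0.0036). No probe of miR-132 was above background on all 8 arrays, so it entered through 1 group alone. Its room temperature levels lay near the floor, so neither this p nor the size of the change can establish a rise. miR-378, which lies in the gene of the metabolic coactivator Ppargc1b, had 1.71, 2.22 and 2.02 in the cold, against 0.76, 0.86 and 1.42 at room temperature, and rose by 0.97 (SE 0.215; limma adjusted p = 0.0219). The groups did not overlap in these 2 miRNAs, nor in 38.6% of all 189.

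Of 15 described as restraining vessel growth, 11 were tested. Of these, 0 were higher in the cold (8.47% of all 189 were) and 1 lower (6.88%), with a median change of 0.03. miR-214 had log2 levels of −4.81, −4.92 and −4.98 in the cold mice, against −4.25, −4.20 and −4.01 in the room temperature mice, without overlap, as in 38.6% of all 189. It fell by 0.75 on the log2 scale (SE 0.128; limma adjusted p = 0.0121). That value includes at least 1 probe that entered through 1 group alone. With only the probes above background on all 8 arrays the change was −0.70 (limma adjusted p = 0.0333). After the spot correction miR-132, miR-378 and miR-214 passed with 1.17, 0.63 and −0.58 (limma adjusted p of 0.0040, 0.0409 and 0.0305). Here too miR-132 entered through 1 group alone, and the value of miR-214 included such a probe. miR-378 missed the threshold without mouse 2, 3, 4 or 5 and with the middle rows only (limma adjusted p from 0.0519 to 0.0970), and miR-214 missed it without mouse 6 (adjusted p = 0.0544). Without a filter on dim probes none of the 3 passed (limma adjusted p of 0.157, 0.298 and 0.0832), without scaling miR-132 and miR-378 did not (0.224 and 0.325), and with a normexp background miR-132 and miR-214 did not (0.0730 and 0.781).

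Marker miRNAs of the cells that brown fat can hold were set beside these values. The brown adipocyte markers miR-193b, miR-365 and miR-378 were all detected, and their summed scaled level was 8.39 to 11.6 in cold mice and 6.76 to 8.20 at room temperature. miR-193b and miR-378 passed the test (log2 changes of 0.64 and 0.97, limma adjusted p of 0.0129 and 0.0219), where 8.47% of all 189 miRNAs were higher past the threshold. After the spot correction miR-193b did not pass (0.44, limma adjusted p = 0.0709). It missed the threshold in 6 of 19 alternatives, among them no scaling, the brightest probe and leaving out mouse 2 or 6, and miR-378 missed it in 7 of 19. The change of miR-365 was −0.07 (limma adjusted p = 0.840). The endothelial markers are miR-126-3p and miR-126-5p themselves, with a summed level of 8.98 to 12.02 in cold mice and 11.2 to 12.9 at room temperature. Of vascular smooth muscle and pericyte markers only miR-143 was tested, since the others did not pass the filter on dim probes or were not on the array, and its scaled level was 0.091 to 0.304 in cold mice and 0.240 to 0.311 at room temperature.

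Among blood markers, the 3 erythroid miRNAs summed to 17.4 to 27.9 in cold mice and 12.3 to 15.1 at room temperature, with 0 of 3 past the threshold that 15.3% of all miRNAs passed. The 7 leukocyte miRNAs summed to 0.684 to 1.11 in cold mice and 1.17 to 1.23 at room temperature, with 0 of 7 past it. Of 6 skeletal and heart muscle markers, the 4 tested summed to 1.49 to 6.44 in cold mice and 7.53 to 11.1 at room temperature. Of these 4, 3 were lower past the threshold, where 6.88% of all miRNAs were: miR-133a, miR-133b and miR-206, with log2 changes of −1.88, −1.97 and −2.05 (limma adjusted p of 0.0229, 0.0228 and 0.0453). miR-206 missed the threshold in 14 of 19 alternatives, the spot correction among them (limma adjusted p = 0.0577). miR-133a and miR-133b each missed it in 7 of 19: without mouse 2, 3, 4, 5 or 6, with the middle rows only and without a filter on dim probes. miR-208b and miR-499 did not pass the filter. The liver miRNA miR-122 was at the floor of 0.01 in all 3 cold mice, against 0.011 to 0.300 in room temperature mice, and was not past the threshold. The filter needs signal in only 1 group, so a floor level in the other cannot establish a change. The part of these other cell types in the level of miR-126 was not tested.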

How the data were processed

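The authors deposited the scanner output of every array. Per the file headers, Agilent Feature Extraction 10.7.3.1 wrote the background-subtracted spot intensity on a linear scale. Per the submitters' processing notes the version was 9.5.3.1. Control spots and outlier spots were dropped and spots averaged per probe. Signals were divided by the array's 75th percentile among the 267 probes detected on all 8 arrays (793 ± 149.7 units cold, 1085 ± 286 units room temperature; SD, n = 3), floored at 0.01 and put on a log2 scale. Probes entered (329 of 1712) if over 0.5 of the spots exceeded background clearly on all arrays of 1 group or both, and a miRNA is the mean of its kept probes. Arrays of one mouse were averaged. Cold minus room temperature was fitted with limma 3.58.1 in R 4.3.3, tested on simulated data. Single values had exact permutation tests. No member spot was saturated. Mice were the replicates, and their number limits the precision. The deposited series table was identical to the scanner values (largest difference 0, column medians 1.12 to 1.55 units).

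The miRNAs and lists were chosen with earlier results of these data known. Named miRNAs were the 4 members, the 3 nearest in pattern to miR-126-3p and to miR-221, the neighbours in level, and list or marker miRNAs past the threshold. miR-122, miR-143, miR-208b, miR-365 and miR-499 were named besides, after their values were seen. The alternatives tried were other scalings, a normexp background, other filters and summaries, leaving out each mouse, and 3 added after seeing the data (spot position correction over 12 by 4 parts of the array, the middle rows, and the median over spots). Normexp used the median spot signal, with an offset of 50, in place of the mean signal first chosen.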

Additional observations from a re-analysis of the deposited data

Results flagged for a closer look

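One result was noted because signal appeared in a probe outside the tested set. The miR-221 probe A_54_P2640, which was above background on 1 cold array and on 0 room temperature arrays, averaged 13.6 ± 5.76 units in cold mice and 3.39 ± 1.53 units in room temperature mice (SD, n = 3), a difference of 10.2 units (exact permutation test, 2-sided, p = 0.1, which is the lowest possible here). The kept miR-221 probe A_54_P3830 averaged 35.8 ± 7.99 units in cold mice and 43.7 ± 6.96 units in room temperature mice, a difference of −7.89 units. After the spot position correction the groups overlapped in A_54_P2640, at mean log2 levels of −5.72 in cold mice and −5.65 at room temperature (exact permutation test, 2-sided, p = 0.9). No fold is given for A_54_P2640, since no room temperature array had it above background.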

How the results depend on the processing

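None of the 19 alternatives brought miR-126-3p, miR-126-5p or miR-221 past the threshold. The adjusted p of limma ran from 0.173 to 0.999 for miR-126-3p, from 0.183 to 0.992 for miR-126-5p and from 0.0530 to 0.955 for miR-221, the lowest with the total signal that the scanner software gives (change 0.50). The change of miR-126-5p was below 0 under all 19 (−0.73 to −0.0027). That of miR-126-3p was positive with the brightest probe (0.28) and the middle rows (0.073). That of miR-221 was negative with the spot position correction (−0.31) and with the middle rows (−0.070), and also without scaling (−0.30), where the common shift sets the sign (median of all −0.46). The median of all was 0.14 with the middle rows. Leaving out 1 mouse gave −0.22 to −0.0077, −0.54 to −0.0027 and 0.02 to 0.28 for miR-126-3p, miR-126-5p and miR-221. miR-126-3p ranked 2 under all 18 alternatives that give a rank.

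The change of the arm ratio was 0.70 with the brightest probes, −0.16 with normexp, −0.08 with the first arrays only, −0.06 with the median over spots and −0.0050 without mouse 1. That of miR-222 was −2.51 units with its brighter probe and between that and 0 under all 17 alternatives (0 with the total signal, −0.26 with normexp, −0.52 scaled). That of miR-221 minus miR-222 was 2.35 with the percentile over all probes, 2.87 with quantile normalisation, 4.35 scaled to the 75th percentile, 3.49 scaled to 26 positive control probes, 3.27 with the total signal, −18.8 with the spot position correction and −15.0 with the middle rows (units; exact permutation p of 0.1 to 0.7). The filters on dim probes gave no value for miR-222 or the pair.

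Of all miRNAs, 45 passed with quantile normalisation, 13 without scaling, 6 with normexp, 16 with probes above background on all arrays, 5 without a filter and 8 to 33 without 1 mouse (8 without mouse 6, 11 without mouse 2, 14 without mouse 3, 13 without mouse 5), where 29 passed as reported. Of the miRNAs described as promoting vessel growth, where 2 passed, 0 passed without scaling and without a filter, 1 with normexp and with probes above background on all arrays, 4 with the total signal, and 1 to 2 without 1 mouse (1 without mouse 2, 3, 4 or 5). Of the restraining ones, where 1 passed, 2 passed with quantile normalisation, the brightest probe or the first arrays only, 0 with normexp or without a filter, 4 with the total signal, and 0 to 2 without 1 mouse (0 without mouse 6, 2 without mouse 1). The causes were not tested. No paired analysis was possible because mouse numbers are not shared between the groups. Signal over background limits miR-222 and A_54_P2640.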
